A study of Rattus norvegicus with 4 samples.

Results

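The 10 genes described here encode proteins of the cell surface or of the secretory route: the secreted proteins C1ql1, Cytl1 and Olfml2a, the membrane proteins Lrrc4, Sez6 and Armh4, the receptors P2ry12 and Lgr5, the potassium channel subunit Kcnmb4 and the vesicle docking protein Sytl2. They were picked by name for a large fall under KHS101, so their differences between the KHS101 arrays and DMSO describe how they were chosen and carry no test. All 10 were found, among 14217 named genes on the array. The data come from Fisher 344 rat hippocampal progenitor cells, a dividing primary culture with the capacity to make neurons and glia. Cells were given KHS101, a small molecule that was studied as an inducer of neuronal differentiation and reported to bind TACC3, at 5 uM or at 1.7 uM. The negative control was the solvent dimethyl sulfoxide (DMSO), and the positive control was 1 uM retinoic acid together with forskolin, an activator of adenylyl cyclase, for which the labels state no concentration. Per the labels' protocols, compounds stayed on for 4 days, and RNA was hybridised to Affymetrix rat arrays.

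Each of the 4 groups was 1 array, so no difference below has a replicate check and no test between groups was possible. Precision is limited by this number of arrays. The labels do not say how many cultures or animals stand behind an array. Values are on a log2 scale, where a difference of 1 is 2-fold. A value at or under a floor of log2 = 5 was taken as without specific signal, and a gene counted as called, higher or lower, from 2-fold on. If 1 array of a pair lies at the floor, just a minimum size can be given, which is written "at least". Between 8389 and 8471 named genes lay above the floor on each array. The 3' minus 5' log2 difference of the beta-actin control, which grows as RNA is shortened, was 1.26 in DMSO, 1.37 for the positive control, 1.40 for the lower KHS101 concentration and 1.54 for the higher. For the hexokinase control the same difference was 0.69 in DMSO, 0.66 for the positive control, 0.80 for the lower KHS101 concentration and 0.96 for the higher. The part of RNA quality in the results was not tested. In RNA from a whole culture, fewer cells that hold a transcript and less transcript per cell cannot be told apart.

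Genes of this kind set what a cell shows to its surroundings. Secreted C1q-domain proteins and leucine-rich adhesion proteins act between cells at synapses. Receptors and channel subunits determine which signals a cell can receive, and RAB27 effectors such as Sytl2 bring vesicles to the plasma membrane. Progenitors of the hippocampus change this equipment as they stop dividing and take on a neuronal or glial fate.

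Stretches before the start sites of 5 members were taken from RefSeq tables of build GRCr8, and 3 are shown because they span the range of base composition among genes that were low on the same arrays. Each is the 250 bases before the annotated start on the minus strand, printed in the gene's direction, with capitals at every match to 1 of 11 short motifs on either strand.
Kcnmb4, chr7:54005102-54005351: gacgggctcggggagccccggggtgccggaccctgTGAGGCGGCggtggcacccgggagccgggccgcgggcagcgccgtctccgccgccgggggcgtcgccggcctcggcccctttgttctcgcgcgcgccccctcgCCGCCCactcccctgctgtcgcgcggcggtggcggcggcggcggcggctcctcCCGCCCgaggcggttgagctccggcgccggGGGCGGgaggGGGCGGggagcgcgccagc
Armh4, chr15:25556533-25556782: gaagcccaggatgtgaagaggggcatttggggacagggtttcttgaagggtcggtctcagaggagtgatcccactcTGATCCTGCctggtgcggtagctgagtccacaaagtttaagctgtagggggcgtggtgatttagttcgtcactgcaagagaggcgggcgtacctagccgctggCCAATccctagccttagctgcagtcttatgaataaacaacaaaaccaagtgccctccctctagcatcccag
Cytl1, chr14:77283646-77283895: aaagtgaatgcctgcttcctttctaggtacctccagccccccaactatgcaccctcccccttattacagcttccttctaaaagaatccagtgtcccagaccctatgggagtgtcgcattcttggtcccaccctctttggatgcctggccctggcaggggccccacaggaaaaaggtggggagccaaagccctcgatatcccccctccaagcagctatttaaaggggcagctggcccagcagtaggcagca

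The Kcnmb4 stretch was 84.4% G and C, higher than 99.8% of the 33465 promoters of the same length, with a ratio of observed to expected CpG of 0.99. Those of Armh4 and Cytl1 were close to each other in G and C, at 54.4% and 56.4%, but their CpG ratios were 0.38 and 0.10; the median over all promoters was 51.2% G and C and a ratio of 0.38. No motif was shared by all 5 members. The GC box GGGCGG was in 2 of the 5 (Kcnmb4 and Olfml2a) and in 30.5% of all promoters. The CCAAT box CCAAT was in 2 of the 5 (Armh4 and Lrrc4) and in 34.0% of all. The pattern TGANNNNGC was in 3 of the 5 (Kcnmb4, Armh4 and Olfml2a) and in 34.7% of all. It is a loose form of the antioxidant response element, with any base at each N. The E-box CACGTG, which reads the same on both strands, was in 1 of the 5 (Olfml2a) and in 5.59% of all. The other 7 motifs had 0 matches among the members: the TATA box TATAAA (12.9% of all promoters), the cAMP response element core TGACGT (6.95%), the ATF4 and CHOP composite core TGATGNAA (3.40%), the cell cycle homology region TTTGAA (16.2%), the RBPJ core TGGGAA (22.1%), the TCF and LEF core CTTTGA (13.9%) and the nuclear receptor core AGGTCA (14.1%). The Cytl1 stretch therefore carries no capitals. A match is a description of letters and not a binding site.

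**Figure D1:**
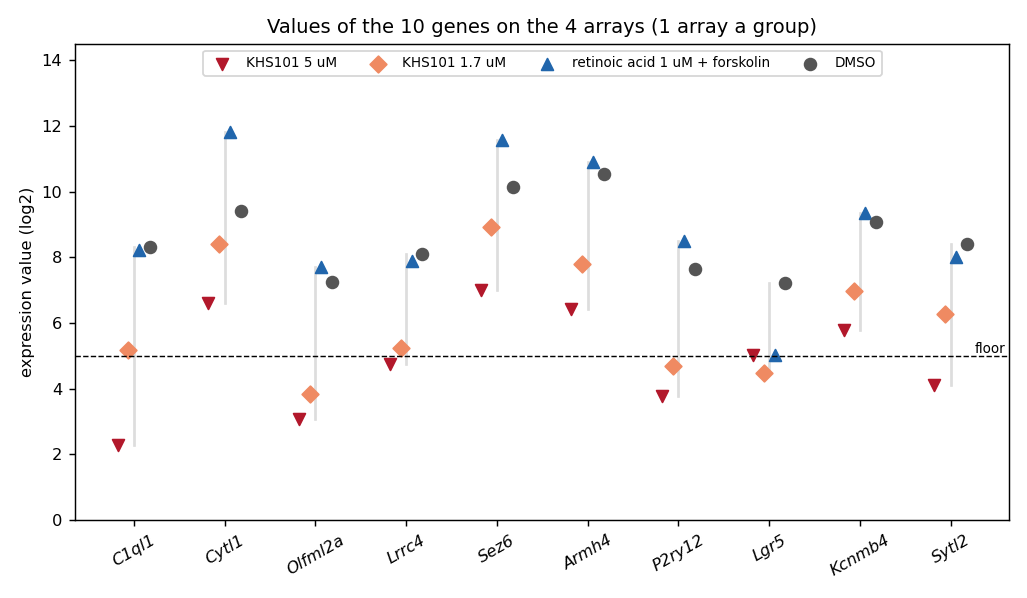
Expression values (log2) of the 10 genes on the 4 arrays, 1 point per array, with the floor of log2 = 5 as a dashed line and a grey bar from the lowest to the highest value. In all 10 genes both KHS101 points lie below the DMSO point, and in Lgr5 the retinoic acid point lies beside them.

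Among the secreted members, C1ql1, a C1q-domain protein that organises synapses through the adhesion receptor Adgrb3, had log2 values of 8.30 in DMSO, 8.22 with retinoic acid and forskolin, 5.19 with KHS101 at 1.7 uM and 2.30 at 5 uM. The DMSO and retinoic acid arrays were nearly level, and KHS101 brought the value to the floor at the higher concentration. It was 8.66-fold lower than DMSO at 1.7 uM and at least 9.87-fold lower at 5 uM. Cytl1, a small secreted cytokine-like protein known from cartilage, was at 9.42 in DMSO, 11.83 with retinoic acid and forskolin, 8.41 with KHS101 at 1.7 uM and 6.62 at 5 uM. Its 4 values were the most widely spread of the members that stayed above the floor, with retinoic acid above DMSO and KHS101 below it. It was 2.02-fold lower than DMSO at 1.7 uM, 6.96-fold lower at 5 uM and 5.33-fold higher with retinoic acid and forskolin. Olfml2a, a secreted olfactomedin-domain protein of the extracellular matrix, was at 7.25 in DMSO and 7.72 with retinoic acid and forskolin, against 3.84 and 3.09 with KHS101 at 1.7 and 5 uM. Both KHS101 arrays were thus under the floor, and the bound was at least 4.76-fold lower at either concentration.

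Of the membrane proteins, Armh4, a single-pass membrane protein whose role is little known, was at 10.55 in DMSO, 10.92 with retinoic acid and forskolin, 7.81 with KHS101 at 1.7 uM and 6.44 at 5 uM. All 4 values were above the floor and followed the KHS101 concentration. Armh4 was 6.66-fold lower than DMSO at 1.7 uM and 17.3-fold lower at 5 uM, the lowest difference of all 8543 genes measured at 5 uM with the floor; without it C1ql1, Sytl2 and Olfml2a were lower still, at -6.00, -4.29 and -4.17 on the log2 scale against -4.11. Lrrc4, also called netrin-G ligand 2, a postsynaptic adhesion protein, was at 8.09 in DMSO, 7.89 with retinoic acid and forskolin, 5.24 with KHS101 at 1.7 uM and 4.75 at 5 uM. The KHS101 arrays lay on either side of the floor, so that they could hardly be ranked. Lrrc4 was 7.20-fold lower at 1.7 uM and at least 8.51-fold lower at 5 uM. Sez6, a neuronal membrane protein with CUB and sushi domains that shapes dendrites, was at 10.15 in DMSO, 11.56 with retinoic acid and forskolin, 8.92 with KHS101 at 1.7 uM and 7.02 at 5 uM. As with Cytl1, the retinoic acid array was above DMSO and the KHS101 arrays below it. Sez6 was 2.35-fold lower at 1.7 uM, 8.78-fold lower at 5 uM and 2.66-fold higher with retinoic acid and forskolin.

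The receptors behaved differently from each other. P2ry12, a G protein-coupled receptor for ADP known from platelets and microglia, was at 7.66 in DMSO and 8.50 with retinoic acid and forskolin, but at 4.70 and 3.78 with KHS101 at 1.7 and 5 uM. Only the arrays without KHS101 were above the floor, and P2ry12 was at least 6.32-fold lower at both concentrations. Lgr5, the R-spondin receptor that marks stem cells in several epithelia, was at 7.22 in DMSO, 5.02 with retinoic acid and forskolin, 4.49 with KHS101 at 1.7 uM and 5.01 at 5 uM. DMSO alone stood clear of the floor. Lgr5 was 4.61-fold lower at 5 uM, at least 4.66-fold lower at 1.7 uM and 4.58-fold lower with retinoic acid and forskolin, which makes it the single member that was lower than DMSO by 2-fold in the positive control.

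Kcnmb4, the beta-4 subunit that modulates the calcium-activated BK potassium channel, was at 9.09 in DMSO, 9.36 with retinoic acid and forskolin, 6.97 with KHS101 at 1.7 uM and 5.78 at 5 uM. The order followed the concentration, at 4.32-fold lower for 1.7 uM and 9.86-fold lower for 5 uM. Sytl2, a RAB27 effector that docks vesicles at the membrane, was at 8.41 in DMSO, 8.00 with retinoic acid and forskolin, 6.29 with KHS101 at 1.7 uM and 4.12 at 5 uM. It was 4.35-fold lower at 1.7 uM and at the floor, at least 10.6-fold lower, at 5 uM.

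Together, 10 of 10 members were 2-fold or more below DMSO at 5 uM, against 8.1% of 8543 measured genes, and 10 of 10 at 1.7 uM, against 4.27% of 8533. In the other direction the members numbered 0, where 6.16% and 4.36% of measured genes were 2-fold higher. These counts restate the choice. They rest on the brightest probe set of each gene: with probe sets averaged, 7 of 9 measured members were called, Lrrc4 differed by -0.45 and P2ry12 by -0.61, and Olfml2a was not measured. The median log2 difference of the members was -3.11 at 5 uM, with 5 of the 10 entering as bounds, and -2.24 at 1.7 uM, with 3 as bounds; over all measured genes the medians were 0.0011 and -0.0096. The rule names no threshold. The smallest fall among the members was that of Lgr5 at 5 uM, and 111 genes lay at or below it; at 1.7 uM it was that of Cytl1, and 354 genes lay at or below it.

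**Figure D2:**
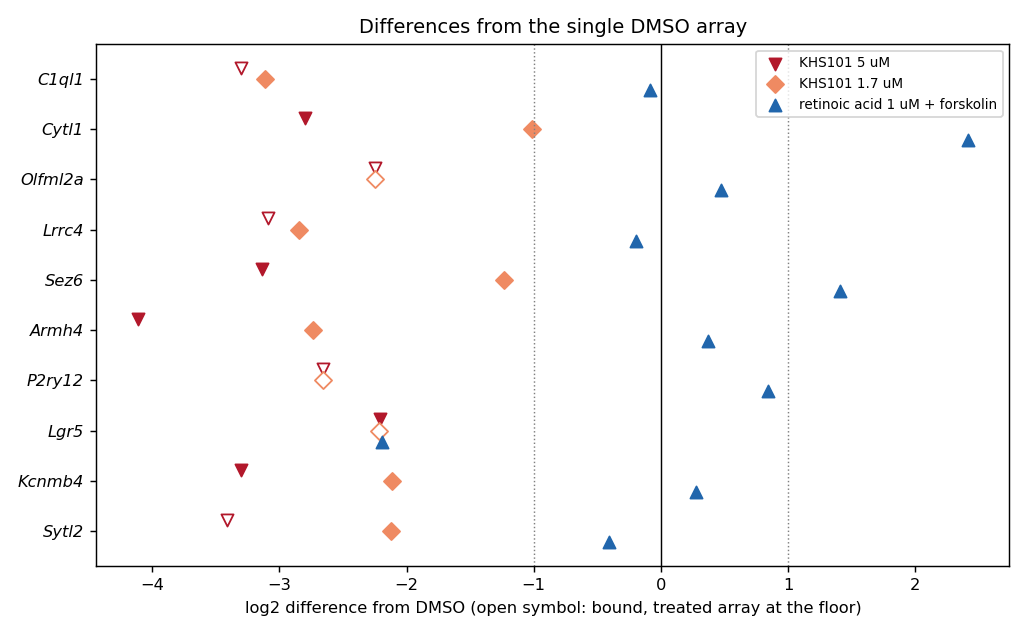
Log2 differences of the 10 genes from the DMSO array for KHS101 at 5 uM, KHS101 at 1.7 uM and retinoic acid with forskolin; open symbols are bounds, and dotted lines mark 2-fold. The KHS101 symbols of all 10 genes lie at or left of the lower 2-fold line, while the retinoic acid symbols run from -2.20 for Lgr5 to 2.41 for Cytl1.

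The stated rule names KHS101 and not the retinoic acid array, but the members were picked with results of all arrays known, and this comparison shares the DMSO array with the KHS101 comparisons, so it too is a description. With retinoic acid and forskolin, 1 of the 10 members was 2-fold lower than DMSO (Lgr5), where 3.15% of 8535 measured genes were, and 2 were 2-fold higher (Cytl1 and Sez6), where 4.34% were. The other 7 lay between 1.33-fold lower for Sytl2 and 1.79-fold higher for P2ry12. The median difference was 0.32 for the members and -0.03 for all measured genes. In all, 6 members were above DMSO and 4 below it, and C1ql1 was nearest to it, 1.06-fold lower.

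**Figure D3:**
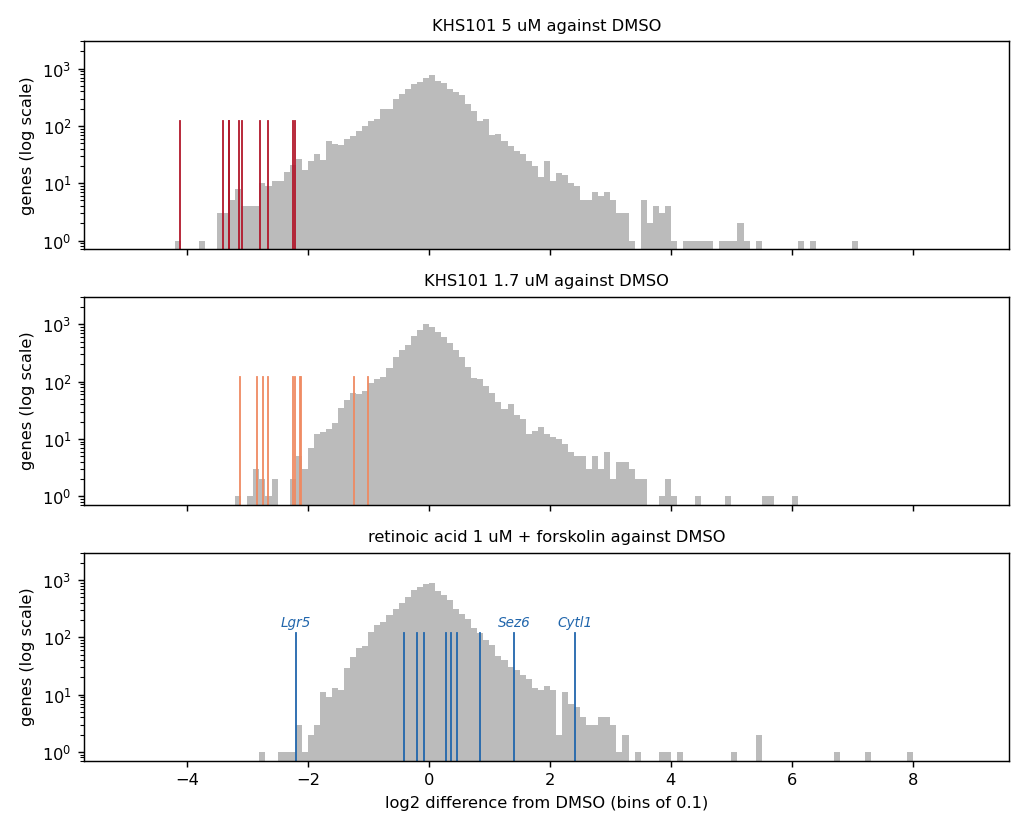
Distribution of log2 differences from DMSO over all measured genes (grey bars, bins of 0.1, counts on a log scale) with the 10 members as coloured lines, for each treatment. The members lie in the lower tail under KHS101, where they were chosen, and from -2.20 to 2.41 around the centre with retinoic acid and forskolin, with the 3 members past 2-fold named.

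Set directly against retinoic acid with forskolin, 9 of the 10 members were 2-fold lower with KHS101 at 5 uM (10.2% of 8606 measured genes were) and 9 of the 10 at 1.7 uM (5.39% of 8588 were). Of the members, 0 were higher, against 8.94% and 5.93% of measured genes. These comparisons leave out DMSO but use the KHS101 arrays on which the members were picked. Cytl1 was 37.1-fold lower at 5 uM than with retinoic acid and forskolin, Sez6 23.4-fold and Armh4 22.4-fold. P2ry12 was at least 11.3-fold lower. Lgr5 was the exception, with values of 5.01 and 5.02 just above the floor.

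Between the KHS101 concentrations 8 members could be measured, since P2ry12 and Olfml2a were at the floor on both arrays. Of these, 5 were 2-fold lower at 5 uM than at 1.7 uM (1.73% of 8500 measured genes were) and 0 were higher (0.812% were), with a median of -1.24 in which 4 differences are bounds. Sez6 differed by 3.74-fold, Cytl1 by 3.45-fold, Armh4 by 2.60-fold, Sytl2 by at least 2.44-fold and Kcnmb4 by 2.28-fold. Both arrays entered the choice, so this too is a description. For the 4 members above the floor on every array, the part of the 5 uM log2 difference already present at 1.7 uM was 36.1% for Cytl1, 39.3% for Sez6, 64.0% for Kcnmb4 and 66.5% for Armh4. Cytl1 and Sez6, the members that were higher with retinoic acid and forskolin, were thus also those with the smaller part at 1.7 uM, a pattern seen in 4 genes on single arrays.

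A further probe set, a separate group of probes on the same array, was present for 3 members, so that 13 probe sets stand for the 10 genes. For Lrrc4 it lay between 2.58 and 2.90 and for Olfml2a between 2.13 and 2.61, under the floor on all 4 arrays, so neither could repeat the measurement. The other P2ry12 probe set was also under the floor, at 3.55 in DMSO, 4.07 with retinoic acid and forskolin, 2.36 with KHS101 at 1.7 uM and 2.22 at 5 uM. That probe set is annotated with a RefSeq transcript, and the P2ry12 probe set used here is not. The P2ry12 signal above the floor thus rests on 1 probe set. The Lrrc4 probe set used here carries the suffix that marks probes shared by more than 1 transcript.

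Relatives and binding partners of the members were examined next. Cbln1, a cerebellin of the same secreted C1q superfamily as C1ql1, was at 8.78 in DMSO, 8.70 with retinoic acid and forskolin, 7.46 with KHS101 at 1.7 uM and 6.33 at 5 uM. It had the same order over the arrays as C1ql1 and was 5.47-fold lower than DMSO at 5 uM and 2.50-fold lower at 1.7 uM. C1ql3 was at 5.33 in DMSO and under the floor on the other 3 arrays, and the remaining 6 genes of that list were at the floor throughout. Of the BAI adhesion receptors, Adgrb3, to which C1ql1 binds, was 2.84-fold lower at 5 uM and 2.01-fold lower at 1.7 uM, with values of 6.75 in DMSO, 7.35 with retinoic acid and forskolin, 5.75 and 5.25. Adgrb1 differed from DMSO by less than 2-fold on each array. Adgrb2, at 5.30 in DMSO, was under the floor at 5 uM and within 2-fold of DMSO on the other arrays.

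Relatives of the other members were read in the same way. Lrrc4b, a netrin-G ligand like Lrrc4, was 1.24-fold lower at 5 uM, and Lrrc4c 1.69-fold lower; Lrrc4c was 4.14-fold higher with retinoic acid and forskolin, and the leucine-rich adhesion gene Slitrk1 2.00-fold higher. Sez6l and Sez6l2 were at the floor on all 4 arrays. Kcnma1, which encodes the pore of the BK channel that Kcnmb4 joins, was under the floor too, at 2.37 in DMSO, 2.47 with retinoic acid and forskolin, 4.10 with KHS101 at 1.7 uM and 4.95 at 5 uM; Kcnmb1 was at most 2.86. Among partners of Sytl2, Rab27a was at the floor throughout, Rab27b was 1.19-fold higher at 5 uM and 1.96-fold higher at 1.7 uM, and the RAB27 effector Myrip was 2.04-fold higher at 5 uM. Sytl3 was above the floor clearly in the positive control only, 2.84-fold higher than DMSO.

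The P2Y receptors P2ry1 and P2ry10 were within 2-fold of DMSO on each array, and the other 5 on the array were at the floor. Lgr4, the receptor closest to Lgr5, was at 5.16 in DMSO and under the floor elsewhere, and Znrf3, the ubiquitin ligase that R-spondin and LGR receptors restrain, was 1.21-fold lower at 5 uM. Of the olfactomedin-domain genes, Olfml3 was 2.04-fold higher with retinoic acid and forskolin and the latrophilin Adgrl2 2.01-fold higher with KHS101 at 5 uM, while Olfm1 and Adgrl1 stayed within 2-fold. Over these family lists, Cbln1 and Adgrb3 were the relatives called lower under KHS101. Cbln1 was 1 of 2 measured genes of its list and Adgrb3 1 of 3. The netrin-G ligand, RAB27, P2Y, LGR and olfactomedin lists had 3, 3, 2, 2 and 4 measured genes, of which 0 were lower. Of all measured genes 8.1% were lower at 5 uM and 4.27% at 1.7 uM. Myrip and Adgrl2 were called higher at 5 uM, where 6.16% of all measured genes were. At 5 uM C1ql3, Adgrb2, Sytl3 and Lgr4 gave only bounds, so a fall of 2-fold in them could not be told.

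**Figure D4:**
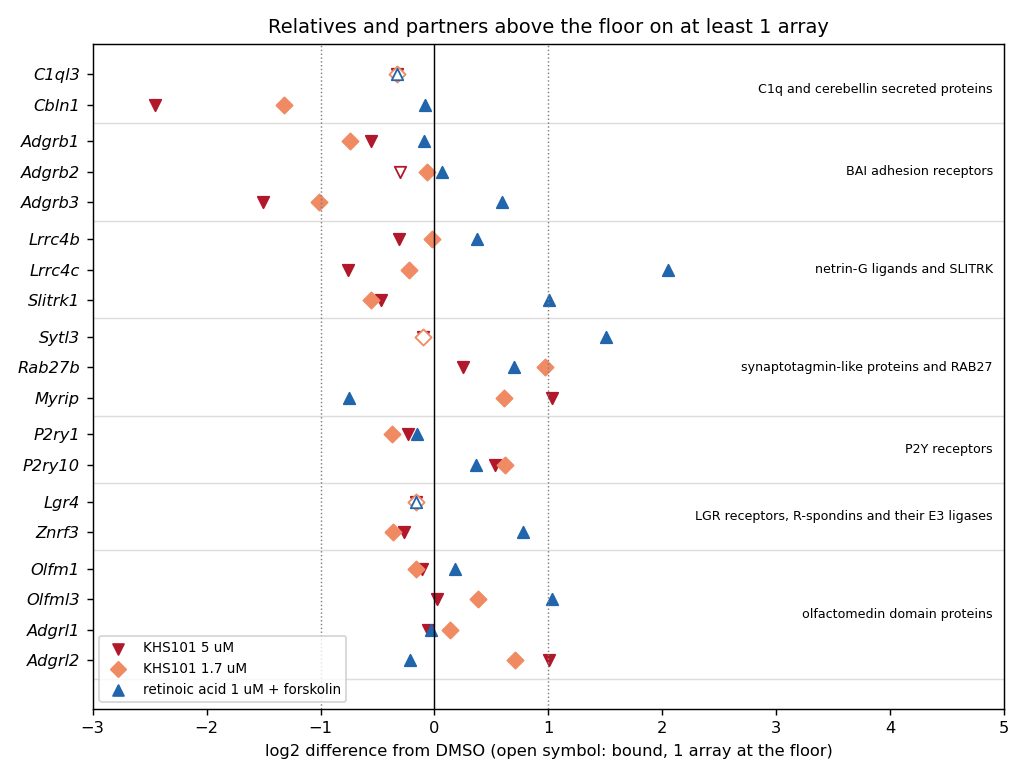
Log2 differences from DMSO of relatives and partners above the floor on at least 1 array, by family, for the 3 treatments; open symbols are bounds, and dotted lines mark 2-fold. With KHS101 at 5 uM, Cbln1 lies at -2.45 and Adgrb3 at -1.51, and the other genes lie right of the lower 2-fold line.

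Pathways around the members were described by lists. Of 8 measured Wnt and beta-catenin targets besides Lgr5, 0 were lower and 1 higher at each KHS101 concentration (medians 0.15 at 5 uM and 0.11 at 1.7 uM). Over all measured genes 8.1% were lower and 6.16% higher at 5 uM, and 4.27% and 4.36% at 1.7 uM. Nkd2, a Wnt inhibitor, was 4.14-fold higher at 5 uM and 3.52-fold at 1.7 uM. With retinoic acid and forskolin 1 was lower, Myc, by 3.12-fold, and 2 were higher, the receptor Tnfrsf19 by 3.70-fold and the feedback inhibitor Axin2 by 2.08-fold. Of all measured genes 3.15% were lower and 4.34% higher with that treatment. Axin2 was 1.16-fold higher than DMSO at 5 uM and 1.04-fold at 1.7 uM. Of 3 measured genes for nucleotide handling at the surface, the ATP-gated channel P2rx4 was 2.72-fold higher with retinoic acid and forskolin and 1.73-fold lower at 5 uM. None of the 6 measured genes of gp130 and STAT3 signalling, a pathway that Armh4 has been linked to, was called with any treatment. The phosphatase gene Ptpn11 was 1.20-fold higher at 5 uM. Socs3, at 5.58 in DMSO, was under the floor with KHS101, at 4.97 for 1.7 uM and 3.78 for 5 uM. It gave only bounds there, so a fall of 2-fold in Socs3 could not be told. For the shared route to the cell surface, 25 genes of translocation, signal peptide cleavage and vesicle transport were measured, of which 0 were lower at either concentration, against the same shares of all measured genes. At 5 uM 2 were higher (median 0.24), the COPII coat genes Sec24d, 2.65-fold, and Sec31a, 2.23-fold. At 1.7 uM Sec24d was the 1 gene called, 2.12-fold higher.

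Markers of the cell types in which these genes are known were read on the same arrays. All 14 microglia markers on the array, among them Cx3cr1, Csf1r, Aif1 and Tmem119, were at the floor on all 4 arrays, the highest at 2.87, and the sum of their linear values was between 63.6 and 66.6 on each array. The P2ry12 signal in DMSO and with retinoic acid was thus measured with these markers at the floor. Oligodendrocyte progenitor markers, a cell type in which C1ql1 is also expressed, had 8 of 9 genes above the floor on every array, and Cspg4 was at the floor. Their summed linear level was 56694 in DMSO, 63421 with retinoic acid and forskolin, 45312 with KHS101 at 1.7 uM and 34743 at 5 uM. At 5 uM 4 of 8 were lower, where 8.1% of all measured genes were, and at 1.7 uM 1 of 8, where 4.27% were (medians -0.93 and -0.48). Nkx2-2 was 3.13-fold, Olig2 2.99-fold, Olig1 2.36-fold and Pdgfra 2.10-fold lower at 5 uM, and Lhfpl3 was 1.46-fold higher. The sum of oligodendrocyte markers was 23753 in DMSO, 38891 with retinoic acid and forskolin, 14300 at 1.7 uM and 9767 at 5 uM, with Mobp and Enpp6 at the floor. At 5 uM 5 of 6 measured were lower (median -1.40), where 8.1% of all measured genes were, Gal3st1 4.72-fold and Mbp 4.32-fold among them. At 1.7 uM 2 of 6 were lower (median -0.73), where 4.27% were. The oligodendrocyte progenitor and oligodendrocyte sums have the order of values over the arrays that Armh4, Kcnmb4, Cytl1 and Sez6 have. The part of these sums in the differences of the members was not tested.

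Astrocyte markers summed to 16516 in DMSO, 34620 with retinoic acid and forskolin, 17027 at 1.7 uM and 13261 at 5 uM, with 5 of 10 genes above the floor and Gfap and Aqp4 among those at it. At 5 uM 2 of 5 measured were lower, Ndrg2 2.85-fold and Aldoc 2.77-fold, where 8.1% of all measured genes were. At 1.7 uM 0 of 5 were called. Of 12 neuronal markers 6 were above the floor in DMSO and 7 with KHS101 at 5 uM, the addition being Nefm, at least 2.23-fold higher. It was the 1 gene called of 7 measured (median 0.05), where 6.16% of all measured genes were called higher. Tubb3 was 1.55-fold higher at 5 uM, Gap43 1.60-fold lower and Syt1 1.56-fold lower, and Dcx and Rbfox3 were at the floor on all arrays. Progenitor markers had 7 of 10 genes above the floor, Sox2, Nes and Vim among them, with Pax6, Hes5 and Prom1 at the floor. The summed linear level of this list was 71923 in DMSO, 65735 with retinoic acid and forskolin, 56298 at 1.7 uM and 42461 at 5 uM. Its median log2 difference from DMSO was -0.30 with retinoic acid and forskolin, -0.18 at 1.7 uM and -0.44 at 5 uM. These medians do not have the order of the sum. C1ql1, Lrrc4 and Sytl2 have the order of this progenitor sum over the arrays, with the 5 uM value of each under the floor. For Lrrc4 the KHS101 arrays, at 5.24 and 4.75, could hardly be ranked. The part of this sum was not tested either. At 5 uM 3 of 7 were lower and 1 higher, where 8.1% and 6.16% of all measured genes were. At 1.7 uM the counts were the same, where 4.27% and 4.36% were. Sox3 was 4.94-fold, Fabp7 4.33-fold and Mki67 2.39-fold lower at 5 uM, and Hes1 was 2.54-fold higher. Postn was the single fibroblast marker above the floor on any array; its DMSO value was 4.95, under the floor, which gives bounds of at least 3.48-fold higher at 5 uM, 6.86-fold at 1.7 uM and 3.96-fold with retinoic acid and forskolin. The other 7 fibroblast markers were at the floor throughout, and Kdr and Vwf, of the endothelial list, were above it with retinoic acid and forskolin alone.

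Outside the lists, the 5 genes whose 3 differences from DMSO were nearest to the members' medians were named by Euclidean distance on the log2 scale, over 3 comparisons and 4 arrays. Apod, a lipid carrier of glia, was nearest, at a distance of 0.39, with values of 12.52 in DMSO, 12.85 with retinoic acid and forskolin, 10.66 with KHS101 at 1.7 uM and 9.32 at 5 uM. It was followed by Xkr5, a membrane protein of the XK family, at 0.49, Nrep at 0.57, the basement membrane gene Nid2 at 0.66 and the interferon-inducible Mx2 at 0.68. Apod and Nid2 are themselves secreted, but the share of secreted genes among the 8379 candidates was not counted. The differences of Nid2 at 5 uM and of Mx2 at both KHS101 concentrations are bounds, as are some of those behind the members' medians.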

How the data were processed

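Expression was measured on 4 Affymetrix rat arrays, 1 for each group. The authors deposited log2 expression values for 31099 probe sets; per the submitters' processing notes they come from GCRMA and R 2.6.2, with no order of steps or genome build stated. The log2 scale was read from the values. GCRMA brings arrays to nearly equal distributions, so a shift of all genes would not show.

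Probe sets with 1 symbol in the platform annotation (20826; 436 had several, 9780 none, and 57 were controls) gave 14217 genes, each by its brightest probe set on average. Values were floored at log2 = 5 and calls made at 2-fold. No test was run. Members, lists and alternatives were chosen with earlier results of these data known. The rule for other names took all relatives above the floor, up to 4 called genes a list (the brightest where none was called, here Ptpn11) and the 5 nearest genes. Uncalled markers, genes at the floor, neighbours in the genome, Socs3 and Sox2, Nes and Vim were named after their values were seen. Promoters came from RefSeq (GRCr8), with 5 of 10 members present. Python 3.11.15, pandas 2.3.3 and numpy 2.4.6 were used. Alternatives were other floors, probe set means, scalings and fold thresholds.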

Additional observations from a re-analysis of the deposited data

How the results depend on the processing

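Median differences and counts of called members were recomputed under 8 alternatives. All 10 members stayed 2-fold below DMSO at both KHS101 concentrations with a floor of log2 = 4 or 6, without a floor, after quantile normalization and after median centring. At a 3-fold threshold 10 members were lower at 5 uM (3.51% of all measured genes were) and 8 at 1.7 uM (0.797% were). The median at 5 uM was -2.36 with a floor of log2 = 6, because higher floors shorten the bounds. Between the KHS101 concentrations 3 of 5 measured members were lower with that floor (1.35% of all measured genes were), 2 at a 3-fold threshold (0.2%), and 6 with a floor of log2 = 4 (1.89%) or without one (1.31%). With retinoic acid and forskolin 1 member was higher at 3-fold (1.57% of genes) and 3 at 1.5-fold (11.3%). When the probe sets of a gene were averaged, 9 members were measured and 7 were called at each concentration, against 7.56% of genes at 5 uM and 4.13% at 1.7 uM; Lrrc4 then differed by -0.45 and P2ry12 by -0.61, as the mean takes in probe sets under the floor. No called value of a member changed sign. Values at or near the floor limit C1ql1, Sytl2, Lrrc4, P2ry12, Lgr5 and Olfml2a. No paired analysis was possible because each group has 1 array and the labels carry no replicate numbers.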

Other observations

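The genes that lie beside the members in the genome were read for comparison, from the gene order of a RefSeq table (GRCr8): up to 2 protein-coding genes on each side that the array also names. This gave 39 genes, Ptprr being a neighbour of both Lgr5 and Kcnmb4, and 25 of them were measured. At 5 uM 2 of the 25 were 2-fold lower than DMSO and 2 higher (median 0.01), close to the 8.1% and 6.16% of all measured genes. At 1.7 uM 1 was lower and 2 were higher (median -0.02), where 4.27% and 4.36% of all measured genes were. The lower genes at 5 uM were Kif18b, a mitotic kinesin beside C1ql1, 2.85-fold, and Igsf10 beside P2ry12, 2.55-fold. Siah2, a ubiquitin ligase on the other side of P2ry12, was 3.08-fold higher, and Zfc3h1 beside Lgr5 2.02-fold higher. P2ry14, the receptor gene next to P2ry12, was at the floor on all 4 arrays. With retinoic acid and forskolin 0 of the 25 passed 2-fold in either direction.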
